A study of Rattus norvegicus with 6 samples.

Results

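The ANP32 and NAP1 proteins are acidic chaperones that bind the basic histones, and their transcripts were compared between LN4D6 cells, a rat mammary tumour line, that were untransfected (3 arrays) or transfected with CREB3L1 (3 arrays). CREB3L1 (OASIS) is a basic leucine zipper transcription factor made as an endoplasmic reticulum membrane protein, whose DNA-binding part is set free by proteolysis. The 10 genes Anp32a, Anp32b, Anp32e, Set, Nap1l1, Nap1l2, Nap1l3, Nap1l4, Npm1 and Npm3 were sought among the 31042 probe sets of an Affymetrix 3' expression array, and every probe set annotated with exactly 1 gene symbol from among them was kept. This gave 10 probe sets for 7 genes, 4 of the ANP32 family and 6 of the NAP1 family. The 3 probe sets of Npm1 also carry the symbol of a pseudogene, Npm1-ps9, and were left out, and Set and Npm3 had 0 probe sets with that single symbol. The genes were chosen on these same arrays, from the opposite differences of Anp32a and Nap1l2, so all differences of the 10 probe sets between the groups are given as a description, with standard errors and intervals and without p-values.

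The control cells received no construct, and no group transfected with an empty vector was analysed here. The labels do not say whether the transfected cells are 1 clone or a pool, nor whether the arrays came from separate cultures, so errors measure the spread between these arrays only. Values are on the log2 scale, and with no detection calls in the table those below 5 were treated as background. The label of the cells was set against marker genes. Of 8 epithelial markers 1 lay at or above 5 in both groups, Krt8 (13.24 and 13.17). Krt7, Krt18, Krt19, Epcam, Cdh1, Cldn3 and Cldn4 lay below it. Of 7 myoepithelial markers 4 lay at or above it, among them Krt5 (14.67 and 14.81), Krt14 (15.25 and 15.08) and the transcription factor gene Tp63 (11.80 and 11.53). Myl9, Cnn1 and Mylk of that list lay below it. Of 8 fibroblast markers 2 lay at or above it, Vim (15.35 and 15.38) and Col3a1 (14.53 and 14.72). Col1a1, Col1a2, Pdgfra, Pdgfrb, Dcn and Lum lay below it. Endothelial markers lay below it in 5 of 5 cases, of 5 leukocyte markers Csf1r (7.31 and 7.47) lay above it, and of 5 adipocyte markers Fabp4 lay above it in untransfected cells only (9.05 and 2.88).

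One array stood apart. On CREB3L1 replicate 3 the Gapdh control read 4.77 higher at its 3' than at its 5' end, against -0.16 to -0.10 on the other 5 arrays, and the 3' probe set of the bioB spike, added before hybridisation, read 11.34 against 8.90 to 9.06. It correlated at 0.984 to 0.989 with the other arrays, which correlated at 0.996 or more among themselves. Values without this array are given beside those that it moved by more than 1.5 times, or whose sign or call it changed.

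Anp32a, Anp32b and Anp32e encode proteins with a head of leucine-rich repeats and a long acidic tail. ANP32A, like SET, inhibits protein phosphatase 2A (PP2A) and shields histones from acetylation, and ANP32E takes the variant H2A.Z off chromatin. The NAP1 proteins carry histones H2A and H2B between cytoplasm and nucleus and help to assemble nucleosomes, NAP1L1 and NAP1L4 in most tissues and NAP1L2 and NAP1L3 mainly in neurons. Members of the CREB3 family bind DNA at sequences related to the cyclic AMP response element.

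The promoters were read first, since the measured members do not share a direction, to see which of the motifs searched each one holds. All 10 genes had an entry in the RefSeq promoter table of assembly GRCr8, and the 250 bases before each start were searched on both strands. The cyclic AMP response element TGACGTCA was found in 0 of 10, as in all but 1.59% of the 33469 promoters of the table. The related letters TGACGTG were found in 1 of 10 (Nap1l4), against 1.54% of all promoters. The shorter core TGACG, which both longer motifs contain, was found in 5 of 10 (Anp32e, Nap1l1, Nap1l2, Nap1l3 and Nap1l4) against 18.2%. CCACG was found in 4 (Anp32a, Set, Npm1 and Npm3) against 27.2%, and the CCAAT box in 5 (Anp32a, Anp32e, Set, Nap1l1 and Nap1l2) against 34.0%. Shown 5' to 3' on the strand of the gene are Anp32a and Nap1l2, which differed most between the groups, and Anp32e and Nap1l4, which differed little and hold some of the motifs searched. Capitals mark these motifs on either strand.
Anp32a (chr8:71724328-71724577, plus strand): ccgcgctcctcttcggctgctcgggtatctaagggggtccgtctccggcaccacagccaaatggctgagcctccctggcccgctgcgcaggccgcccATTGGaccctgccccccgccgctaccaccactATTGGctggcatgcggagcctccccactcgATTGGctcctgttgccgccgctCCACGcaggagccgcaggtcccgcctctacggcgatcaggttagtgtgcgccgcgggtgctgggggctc
Anp32e (chr2:186161342-186161591, plus strand): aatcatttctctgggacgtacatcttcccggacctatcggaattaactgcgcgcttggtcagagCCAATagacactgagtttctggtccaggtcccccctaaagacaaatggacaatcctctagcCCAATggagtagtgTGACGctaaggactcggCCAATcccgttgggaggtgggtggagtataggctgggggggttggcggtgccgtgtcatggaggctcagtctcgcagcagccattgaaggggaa
Nap1l2 (chrX:72242248-72242497, minus strand): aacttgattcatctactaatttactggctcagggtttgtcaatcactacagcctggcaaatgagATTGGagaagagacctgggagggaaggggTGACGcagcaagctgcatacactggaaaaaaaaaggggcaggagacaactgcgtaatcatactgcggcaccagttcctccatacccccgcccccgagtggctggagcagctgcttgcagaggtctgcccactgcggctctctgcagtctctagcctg
Nap1l4 (chr1:208174570-208174819, minus strand): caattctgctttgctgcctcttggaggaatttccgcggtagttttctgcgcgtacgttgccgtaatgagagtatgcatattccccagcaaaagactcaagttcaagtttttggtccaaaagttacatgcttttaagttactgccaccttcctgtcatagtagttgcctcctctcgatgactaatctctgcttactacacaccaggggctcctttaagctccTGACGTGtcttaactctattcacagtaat
Anp32a and Anp32e each hold 3 CCAAT boxes, on opposite strands. Nap1l2 holds 1 TGACG and 1 CCAAT box, and Nap1l4 alone holds TGACGTG. Such matches describe the letters and do not show binding.

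Among the ANP32 genes, Anp32a was far lower in CREB3L1 cells and the other members were close to their untransfected level. The single Anp32a probe set (1369063_at) read 12.14, 11.99 and 11.40 on the untransfected arrays and 4.58, 3.66 and 3.29 on the CREB3L1 arrays. The groups did not overlap, with a gap of 6.82 between the lowest untransfected and the highest CREB3L1 value, and all 3 CREB3L1 arrays lay below the background level. Means were 11.84 ± 0.39 (SD, n = 3) and 3.85 ± 0.67, a difference of -8.00 ± 0.39 (SE) between the values as deposited, and at least 115-fold lower when the CREB3L1 mean is set to the background level. This was the difference of rank 2 from the lowest among all 31042 probe sets. In bulk RNA, a change in the number of cells with a transcript and in transcript per cell cannot be told apart. Anp32a and Nap1l2 each have 1 probe set on this 3' array, so other parts of their transcripts were not read.

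The Anp32a values also varied more between untransfected arrays than most. Their SD of 0.39 was above that of 98.9% of the 1403 probe sets within 0.5 of the same untransfected level, whose median SD was 0.09. Untransfected replicate 3 was the low one. The gap between the 3' and 5' probe sets of the dap spike was 4.48 on that array against 3.38 and 2.37 on the other untransfected arrays. For beta-actin the gap was 3.41 against 3.06 and 2.35, and for Gapdh -0.10 against -0.16 and -0.14. The part of these gaps in the value was not tested.

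Anp32b, read by 1386915_at, gave 14.49, 14.30 and 14.46 on the untransfected arrays and 14.37, 14.34 and 14.47 on the CREB3L1 arrays. The groups overlapped, and the difference was -0.02 ± 0.07 with a 95% interval from -0.19 to 0.15. Anp32e was read by a pair of probe sets, 1371873_at and 1372620_at. The first gave 13.28, 13.26 and 13.35 against 13.16, 13.22 and 13.34, and the second 12.10, 12.07 and 11.90 against 12.11, 12.00 and 11.80. Both overlapped between groups, with differences of -0.05 ± 0.06 and -0.06 ± 0.10. The close relatives of Anp32a thus showed no difference of its size. With all arrays, the intervals of Anp32b and of both Anp32e probe sets reached no further than 1.14-fold, 1.15-fold and 1.23-fold. Without CREB3L1 replicate 3 the interval of Anp32b ran from -0.23 to 0.11. Those of Anp32e then ran from -0.22 to 0.01 (1371873_at) and from -0.16 to 0.22 (1372620_at). These limits reflect the spread between these arrays only.

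**Figure D1:**
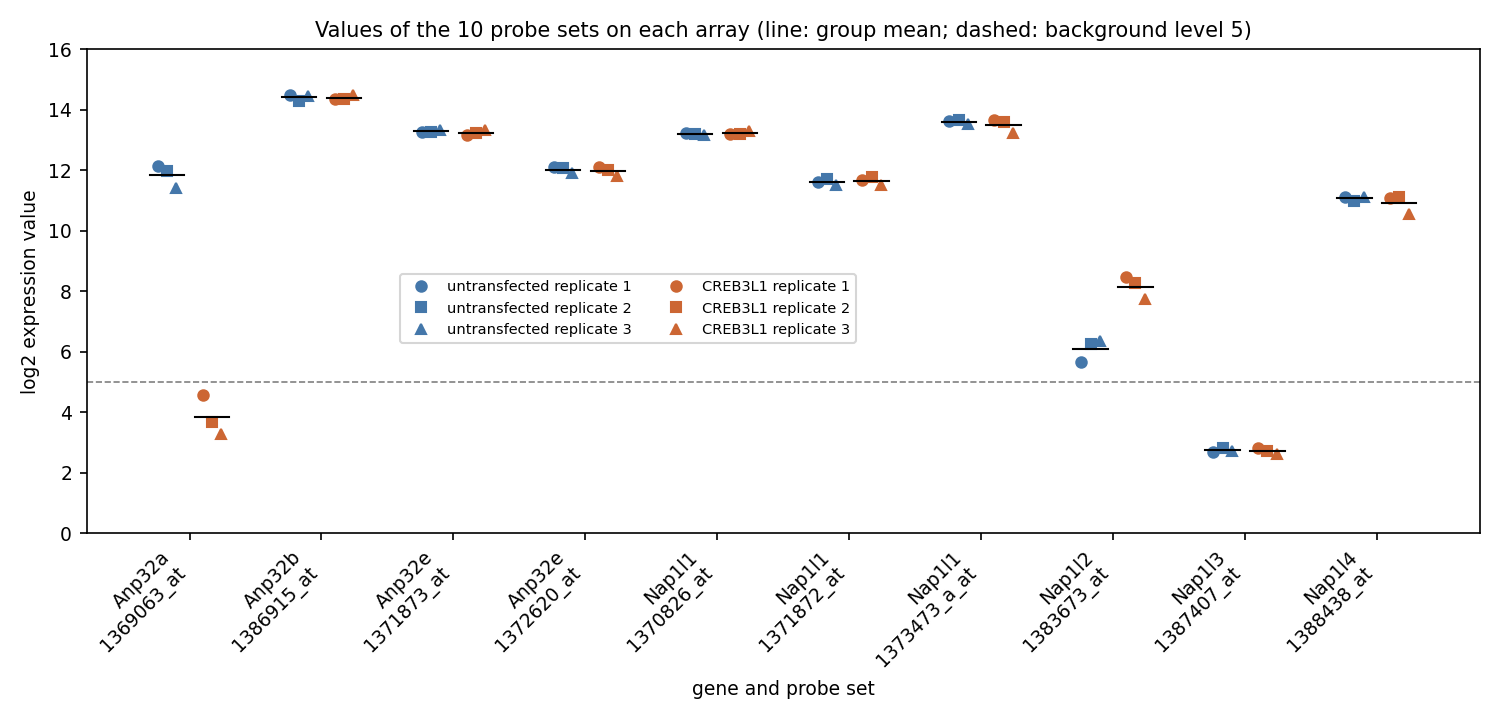
Log2 expression values of the 10 probe sets (x axis) on each of the 6 arrays (y axis), blue for untransfected and orange for CREB3L1 cells, with a line at each group mean and a dashed line at the background level of 5. Anp32a lies at 11.40 to 12.14 in untransfected and 3.29 to 4.58 in CREB3L1 cells, Nap1l2 is higher in CREB3L1 cells, and the groups overlap for the other 8 probe sets.

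In the NAP1 family, Nap1l2 was higher in CREB3L1 cells. Its single probe set (1383673_at) read 5.68, 6.26 and 6.36 on the untransfected arrays and 8.46, 8.28 and 7.73 on the CREB3L1 arrays. The groups did not overlap, with a gap of 1.38, and the lowest CREB3L1 value was that of replicate 3, the array that stands apart. Means were 6.10 ± 0.37 and 8.16 ± 0.38, a difference of 2.06 ± 0.26, or 4.17-fold, of rank 8 from the highest among all probe sets. Without CREB3L1 replicate 3 the difference was 2.27 ± 0.22. The untransfected values of this probe set lay close above the background level of 5.

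Nap1l3, the other X-linked NAP1 gene measured, was below background on every array, at 2.67, 2.82 and 2.73 in untransfected and 2.82, 2.73 and 2.63 in CREB3L1 cells, and no fold is given. The broadly expressed Nap1l1 was read by 3 probe sets. The probe set 1370826_at gave 13.22, 13.20 and 13.16 against 13.22, 13.21 and 13.30, a difference of 0.05 ± 0.04. The probe set 1371872_at gave 11.62, 11.70 and 11.52 against 11.67, 11.77 and 11.53, a difference of 0.04 ± 0.08. The probe set 1373473_a_at gave 13.64, 13.67 and 13.51 against 13.68, 13.61 and 13.25, a difference of -0.10 ± 0.13. Nap1l4, read by 1388438_at, gave 11.11, 10.98 and 11.12 against 11.08, 11.12 and 10.56, a difference of -0.15 ± 0.16. In both of the last cases CREB3L1 replicate 3 was the low value, and the groups overlapped.

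Counted in limma with Benjamini-Hochberg adjustment over all probe sets, 1 of the 10 was called higher and 1 lower at an adjusted p below 0.05, where 0.425% of all probe sets were called higher, 0.963% lower and 1.39% either way. Of the probe sets at or above background in a group, 3.35% were called. The groups did not overlap for 1 higher and 1 lower probe set, against 6.52% and 7.75% of all probe sets, 14.3% together. These counts follow from the choice of Anp32a and Nap1l2 and carry no further reading. Without CREB3L1 replicate 3 the counts were again 1 and 1, against 1.54% and 2.44%, or 3.98% together. The other 8 probe sets, of 5 genes, had differences of -0.15 to 0.05 with a median of -0.04, beside a median of -0.01 over all probe sets and a median size of 0.18 among probe sets at or above background. For the 7 of them at or above background, the 95% intervals with all arrays all held 0. Their furthest limits ran from 1.11-fold (Nap1l1, 1370826_at) to 1.48-fold (Nap1l4), and reflect the spread between these arrays only.

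**Figure D2:**
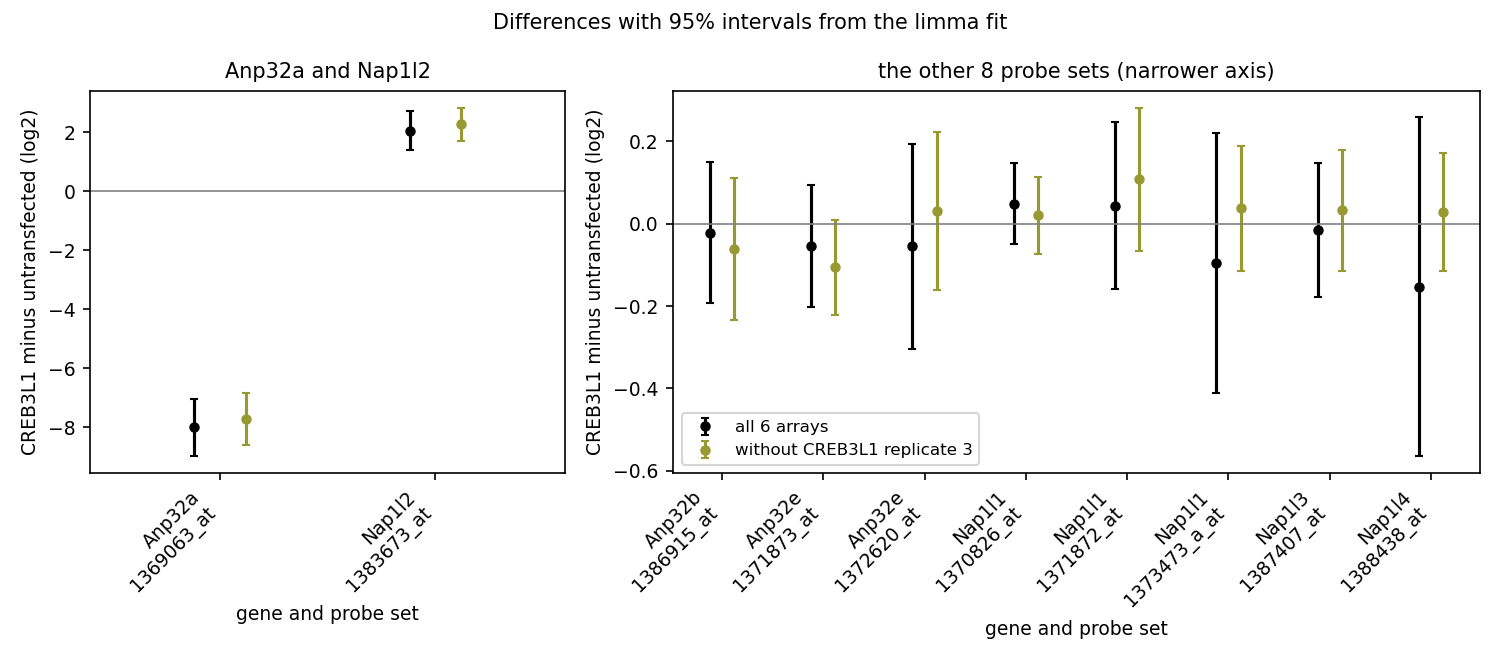
Differences, CREB3L1 minus untransfected on the log2 scale (y axis), with 95% intervals from the limma fit, in black for all 6 arrays and in olive without CREB3L1 replicate 3. Anp32a at -8.00 and Nap1l2 at 2.06 stand on the left, and on the right, on a narrower axis, the other 8 probe sets lie between -0.15 and 0.05 with all 6 arrays.

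Probe sets of the same gene could be compared for Anp32e and Nap1l1 only, since Anp32a and Nap1l2 have 1 each. The differences of the Anp32e pair lay 0.001 apart, where the 1291 genes with as many probe sets above background had a median range of 0.22. That closeness did not hold without CREB3L1 replicate 3, where they were -0.11 and 0.03, a range of 0.14 beside a median of 0.15. The Nap1l1 differences spanned 0.14, below the median range of 0.36 among 300 genes with 3 such probe sets, and 0.09 without that array, beside a median of 0.24. Array by array, set against each probe set's untransfected mean, the Nap1l1 probe sets stayed within 0.16 of each other on 5 arrays and lay 0.47 apart on CREB3L1 replicate 3, where 1370826_at read 0.11 above and 1373473_a_at 0.36 below. The Anp32e pair lay 0.05 to 0.22 apart on those 5 arrays and 0.28 on CREB3L1 replicate 3. The widest split of either gene thus fell on the array with the wide Gapdh gap between 3' and 5' ends, whose part in it was not tested.

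**Figure D3:**
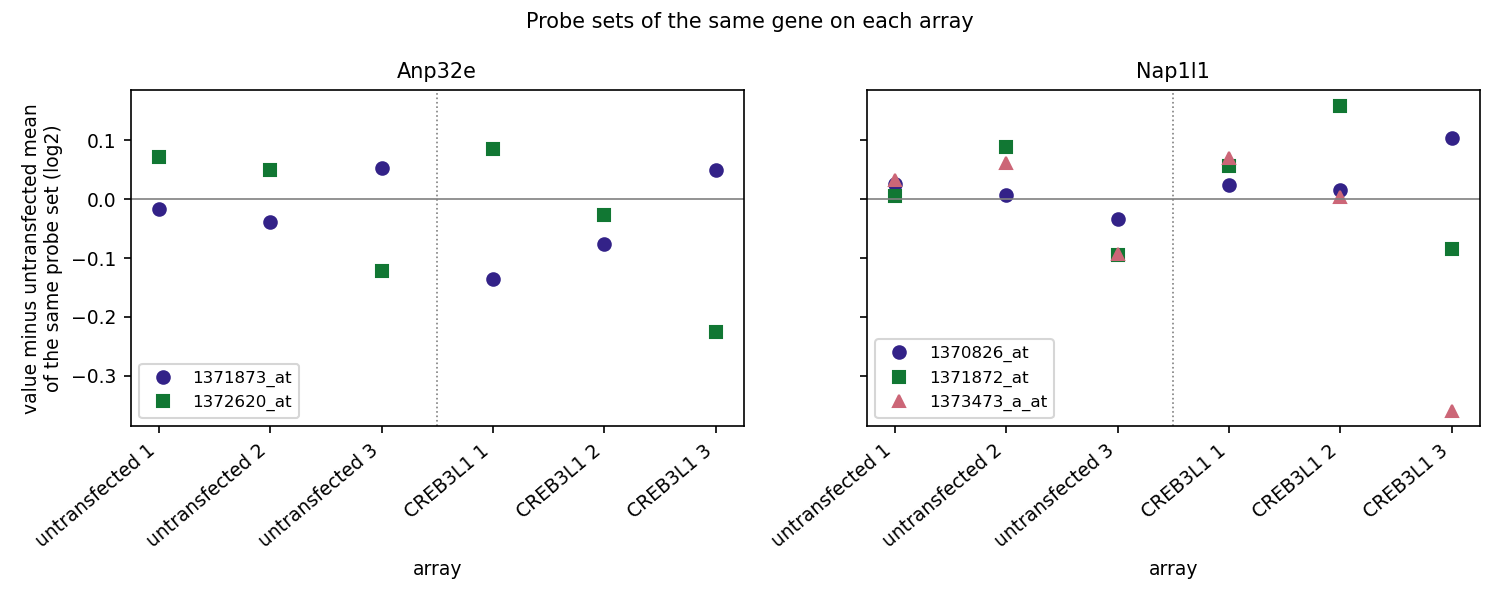
Value of each probe set of Anp32e (left) and Nap1l1 (right) on each array (x axis) minus the untransfected mean of the same probe set, on the log2 scale (y axis). The probe sets lie closest together on the other 5 arrays and farthest apart on CREB3L1 replicate 3, 0.28 for Anp32e and 0.47 for Nap1l1.

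All 10 probe sets deviated on CREB3L1 replicate 3 from the mean of the other CREB3L1 arrays by amounts within the central range of probe sets above background, whose 5th and 95th percentiles were -1.52 and 0.88. The largest deviations were -0.83 for Anp32a, -0.64 for Nap1l2 and -0.54 for Nap1l4. Without that array Anp32a differed by -7.72 ± 0.35, and the sign turned for 4 of the 8 small differences, those of 1372620_at (0.03), 1373473_a_at (0.04), Nap1l3 (0.03) and Nap1l4 (0.03). The others became -0.06 for Anp32b, -0.11 for 1371873_at, 0.02 for 1370826_at and 0.11 for 1371872_at, so all 8 lay between -0.11 and 0.11.

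Genes on either side of Anp32a and Nap1l2 were read to see whether neighbours moved with them, in the order of the RefSeq gene table of assembly GRCr8. Of the 10 measured genes nearest to Anp32a on chromosome 8, 5 lay at or above background, with differences of -0.60 to 0.20. Of these 0 were called by limma, beside 3.35% of all probe sets at or above background. At an unadjusted p below 0.05 in limma there were 4 of the 5, beside 23.6% of all genes at or above background. The nearest on one side, Glce, which encodes an epimerase of heparan sulphate synthesis, gave -0.60 ± 0.15 (adjusted p = 0.197). Kif23, a kinesin gene of cell division, gave 0.20 ± 0.08, Tle3, a corepressor gene, -0.35 ± 0.08, Fem1b -0.13 ± 0.20 and the lysosomal disease gene Cln6 -0.20 ± 0.04. Without CREB3L1 replicate 3 Glce was called at a smaller difference (-0.45, adjusted p = 0.0497), Kif23 gave 0.12 and Fem1b -0.01. None of these came near the -8.00 of Anp32a. Paqr5, Coro2b, Itga11 and the unnamed loci LOC102552398 and LOC102546547 were below background in both groups.

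Nap1l2 lies on the X chromosome beside the X-inactivation centre. Of its 10 measured neighbours 5 lay at or above background, and 1 was called, beside 3.35% of all probe sets at or above background. At an unadjusted p below 0.05 in limma there were 2 of the 5, beside 23.6% of all genes at or above background. Ercc6l, a helicase gene of mitosis, rose from 9.05 ± 0.04 to 9.71 ± 0.09, a difference of 0.66 ± 0.06 (adjusted p = 0.0110 in limma). That call was lost in 6 of 13 alternatives, where the adjusted p reached 0.0773. Hdac8, a histone deacetylase gene, gave -0.39 ± 0.33, the noncoding RNA genes Xist -0.86 ± 0.20 (adjusted p = 0.178) and Ftx 0.25 ± 0.23, and the ubiquitin ligase gene Rlim 0.27 ± 0.13. Hdac8 gave -0.01 and Ftx 0.02 without CREB3L1 replicate 3. The immediate neighbours Chic1 and Fam236d, as well as Tsx, Phka1 and Dmrtc1c1, were below background in both groups.

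**Figure D4:**
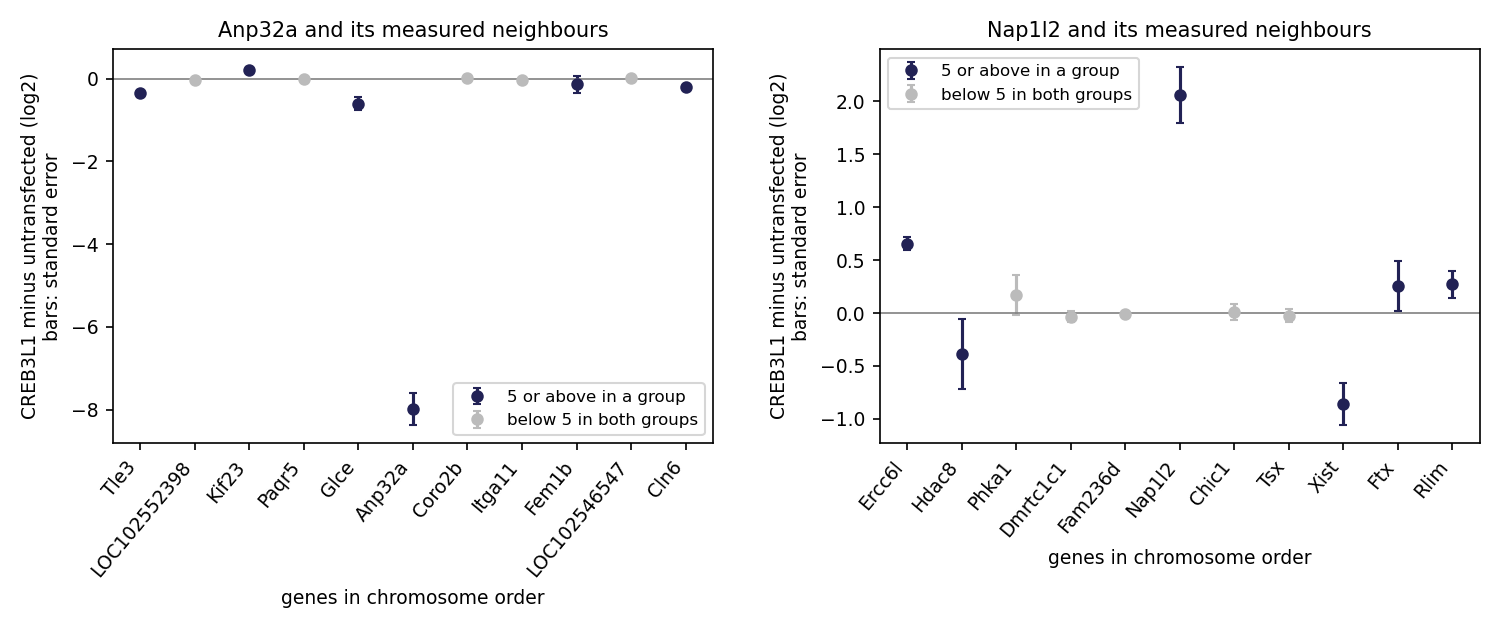
Log2 difference between CREB3L1 and untransfected cells with its standard error (y axis) for Anp32a and Nap1l2 and for the 5 measured genes on either side of each in chromosome order (x axis), with genes below background in grey. The y axes differ between the panels. Neighbours of Anp32a lie between -0.60 and 0.20 beside -8.00, and those of Nap1l2 between -0.86 and 0.66 beside 2.06.

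The 5 genes whose values followed Anp32a most closely over the 6 arrays, among 7713 genes at or above background in a group, were Hilpda (Pearson r = 0.999), Nefh (0.997), Olfm1 (0.997), Heph (0.997) and Wwc3 (0.997). They were lower in CREB3L1 cells by different amounts. Hilpda, a lipid droplet gene, differed by -0.90 and the neurofilament heavy chain gene Nefh by -3.83. Olfm1 differed by -1.92, the ferroxidase gene Heph by -5.06 and Wwc3 by -0.61. In all, 234 genes had an r of at least 0.95 with Anp32a and 56 with Nap1l2. A negative r of at least that size was found for 123 and 117 genes. All these points share the same 3 and 3 arrays from which Anp32a and Nap1l2 were chosen. A clear difference between the groups is enough to give a high r, so these ranks carry no further reading. The Anp32a values of the CREB3L1 arrays also all lay below background. Nap1l2 was followed most closely by Ift74 (0.998), Armc1 (0.994), Nkap (0.992), Usp42 (0.990) and Ppil4 (0.989), with differences of 0.21, 0.24, 0.84, 0.26 and 0.22, all smaller than that of Nap1l2.

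NAP1L2 is known from neurons, so neuronal markers were read beside it. Of 10 such genes 2 lay at or above background in untransfected and 1 in CREB3L1 cells. Map2, a microtubule protein gene, went from 10.18 ± 0.07 to 11.13 ± 0.31 (adjusted p = 0.0791 with all arrays, and 0.00206 without CREB3L1 replicate 3, limma). Snap25, a gene of synaptic vesicle release, fell from 5.39 ± 0.08 to 4.33 ± 0.07 (adjusted p = 0.00291). Rbfox3, Syn1, Tubb3, Nefl, Stmn2, Elavl4, Gap43 and Syt1 lay below background in both groups. The mean of the list ran from 3.69 to 3.77 on untransfected and 3.66 to 3.78 on CREB3L1 arrays. It joins the opposite differences of Map2 and Snap25 with genes below background, so it does not show that neuronal markers stayed alike. The part of these markers in the Nap1l2 difference was not tested.

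The genes that work with these chaperones were then read in 10 lists, each gene by 1 probe set. Over the lists 125 different genes were measured, of which 1 was called higher and 1 lower, or 1.6%, beside 0.577% of all 14217 genes called higher, 1.52% lower and 2.1% either way. Their differences ran from -0.70 to 0.53 with a median of 0.03, beside a median of -0.01 over all genes. At an unadjusted p below 0.05 in limma there were 19 of the 125 (15.2%), beside 14.0% of all genes. Of the 114 at or above background it was 16.7%, beside 23.6% of all such genes. The ordinary test called 0 of the 125, beside 9 higher and 65 lower among all 31042 probe sets, so this 0 carries no further reading.

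Of 26 other histone chaperones, 1 was called higher and 0 lower (median 0.05). At an unadjusted p below 0.05 in limma there were 3 (11.5%), beside 14.0% of all genes. Atrx, a chromatin remodeller that deposits histone H3.3 together with DAXX, read 11.05, 11.19 and 11.19 against 11.58, 11.76 and 11.64, and rose by 0.52 ± 0.07 (adjusted p = 0.0338 in limma). Its other 5 probe sets gave -0.35 to 0.16 and were not called, and the call was lost in 7 of 13 alternatives and with the mean of all its probe sets. Subunits of the chaperones that act at replication, Chaf1a and Chaf1b, gave 0.37 ± 0.18 and 0.44 ± 0.22, and the FACT subunits Supt16h and Ssrp1 0.31 ± 0.12 and -0.05 ± 0.07, none past the threshold. These 4 differences shrank to 0.18, 0.23, 0.17 and -0.02 without CREB3L1 replicate 3. Nap1l5, a further NAP1 gene, was below background (2.52 and 2.51). These last 5 genes, and Rbbp7, Ppp2cb, Ppp2r3a, Ppp2r3c and Ncl below, were named after their values were seen. Without CREB3L1 replicate 3 Rbbp7, a further histone-binding subunit, was called too (-0.28, adjusted p = 0.0226), against -0.13 ± 0.13 with all arrays.

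Among 24 PP2A subunits and regulators, the enzyme that ANP32A and SET inhibit, 0 were called higher and 1 lower (median -0.01). At an unadjusted p below 0.05 in limma there were 4 (16.7%), beside 14.0% of all genes and 23.6% of those at or above background. Ppp2ca, a catalytic subunit, read 11.48, 11.57 and 11.52 against 10.90, 10.97 and 10.61. Its difference was -0.70 ± 0.10 (adjusted p = 0.05 in limma, rounded up from below the threshold), and it was not called in 9 of 13 alternatives. A second Ppp2ca probe set was below background in both groups. The other catalytic subunit gene, Ppp2cb, gave 0.20 ± 0.07 (0.13 without CREB3L1 replicate 3) and was not called. Ppp2r3a, a regulatory subunit gene, gave -0.70 ± 0.29 with all arrays (adjusted p = 0.566) and was called only without CREB3L1 replicate 3, at a smaller difference of -0.36 (adjusted p = 0.0245). The list median was 0.01 without that array. Ppp2r3c, a further regulatory subunit gene, gave -0.45 ± 0.10 with all arrays (adjusted p = 0.145 in limma). It gave -0.39 without CREB3L1 replicate 3 and was called in neither fit.

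H2A.Z and the complexes that exchange it, the substrate side of ANP32E, held 19 measured genes (median 0.02). With all arrays 0 of them were called by limma. An unadjusted p below 0.05 was found for 3 (15.8%), beside 14.0% of all genes and 23.6% of those at or above background. H2az1 lay at 15.18 ± 0.08 and 15.16 ± 0.06, a difference of -0.03 (-0.06 without CREB3L1 replicate 3, where the list median was 0.04). Among genes at or above background the smallest p values were those of Brd8 (-0.31 ± 0.07, adjusted p = 0.150) and Ing3 (-0.21 ± 0.05, adjusted p = 0.156), both of the acetyltransferase complex that also exchanges H2A.Z. Of 9 histone acetyltransferases 0 were called and 0 had an unadjusted p below 0.05 (median 0.10), with Kat7 at 0.34 ± 0.16 and Kat5 at 0.20 ± 0.12. Without CREB3L1 replicate 3 the median was 0.02 and Kat7 gave 0.18. Kat5, which is in the H2A.Z list too, then passed in both lists (0.34, adjusted p = 0.0304 in limma). Of 6 histones made outside S phase 0 were called, also without adjustment, and among those at or above background the smallest p was that of the macroH2A gene Macroh2a1 (-0.07 ± 0.07).

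The remaining 5 lists held no gene called by limma with all arrays. At an unadjusted p below 0.05 in limma they held 0 of 4 SET complex partners, 3 of 5 apoptosome genes and 2 of 9 import receptors. They also held 1 of 6 genes of messenger RNA binding and export and 3 of 21 nucleolar genes. The share was 14.0% of all genes and 23.6% of those at or above background. Of 4 measured partners of the SET complex, the kinase gene Nme1 gave 0.04 ± 0.04 and the nuclease gene Trex1 0.23 ± 0.25 (list median 0.02). Trex1 gave 0.50 (adjusted p = 0.0675) and the median was 0.21 without CREB3L1 replicate 3. Of 5 apoptosome genes, whose assembly ANP32A promotes, the inhibitor gene Xiap gave 0.20 ± 0.04 (adjusted p = 0.150) and Diablo 0.23 ± 0.06 (adjusted p = 0.201), and Diablo passed without CREB3L1 replicate 3 (0.27, adjusted p = 0.0394). The median was 0.20, and 0.11 without that array. Of 6 partners in messenger RNA binding and export, Alyref gave 0.22 ± 0.07 and Khdrbs1 -0.16 ± 0.14 (median -0.04). Khdrbs1 gave -0.01 and the median was 0.05 without CREB3L1 replicate 3. Of 9 histone import receptors, Kpna6 gave 0.40 ± 0.15 and Kpna4 0.18 ± 0.07 (median 0.12). Of 21 nucleolar partners of nucleophosmin, Mdm2 gave 0.23 ± 0.07 and the ribosome factor gene Nop56 0.10 ± 0.04 (median 0.06), and Ncl, the nucleolin gene, gave -0.15 ± 0.20, and 0.07 without CREB3L1 replicate 3.

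**Figure D5:**
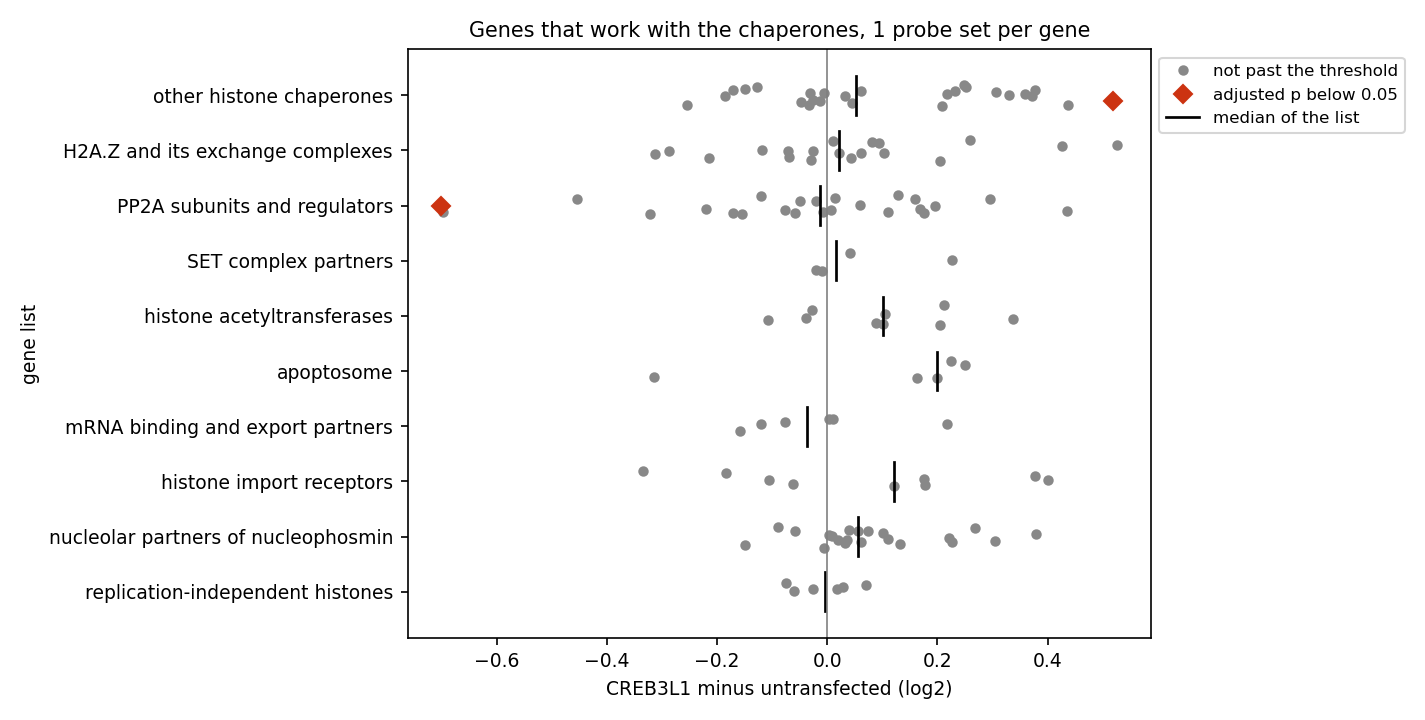
Difference, CREB3L1 minus untransfected on the log2 scale (x axis), of each measured gene in the 10 lists (y axis), with red diamonds for an adjusted p below 0.05 and a line at each list's median. All genes lie between -0.70 (Ppp2ca) and 0.53, and Atrx at 0.52 and Ppp2ca are the called ones.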

How the data were processed

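Total RNA of 6 samples was labelled with biotin and hybridised to Affymetrix arrays, per the labels' protocols. The authors deposited log2 values; the submitters' processing notes name Partek 6.6 and RMA. The base of the log was inferred from the range, 0.27 to 16.9, and the scanner files were not used here. Of the table, 57 control probe sets were set aside and used only to read array quality. Names came from GEO's platform annotation, in which 20826 probe sets have 1 symbol, 436 several and 9780 none. For genes outside the members, the brightest probe set was used.

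Differences were fitted in R 4.3.3 with limma 3.58.1 (lmFit, eBayes, two-sided, Benjamini-Hochberg over 31042 probe sets, threshold 0.05) and the fit was tested on simulated data. A log2 value of 5 was the background level, and folds across it are lower bounds. Outside the members, the named genes are up to 4 called genes of each list with the smallest p (or the 2 smallest where 0 were called), the 5 genes most like Anp32a and Nap1l2 by Pearson correlation, and their measured neighbours. Members and lists were chosen with earlier results of these data known.

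Alternatives were quantile normalisation, median centring, a mean-variance trend, robust eBayes, an ordinary test without moderation, leaving out dim probe sets, leaving out each array, averaging a gene's probe sets, other background levels and, added after the data were seen, array weights.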

Additional observations from a re-analysis of the deposited data

How the results depend on the processing

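Anp32a ranged from -8.36 to -7.72 and Nap1l2 from 1.85 to 2.27. Anp32a was called in 13 of 13 alternatives and Nap1l2 in 7. The Nap1l2 call was lost in the ordinary test and with 1 array left out, except in the fit without CREB3L1 replicate 3. Where it was lost, the count of members called higher was 0. Both genes were chosen from this same contrast, so these calls carry no further reading. With background levels of 4 and 6, the bound on the Anp32a fold became at least 230 and at least 57.4.

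Over all probe sets, the 132 higher and 299 lower calls became 79 higher with a mean-variance trend, 9 higher and 65 lower in the ordinary test, and 600 higher and 952 lower with array weights. With 1 array left out they were 28 to 479 higher and 116 to 756 lower, the highest without CREB3L1 replicate 3. Other histone chaperones called higher (1, Atrx) numbered 0 with a trend, in the ordinary test and when a gene's probe sets were averaged, and 0 to 1 with 1 array left out, with 0 to 1 lower. PP2A genes called lower (1, Ppp2ca) numbered 0 with median centring, a trend, robust eBayes and the ordinary test, and 0 to 2 with 1 array left out. For H2A.Z genes 1 was lower with array weights and 0 to 1 higher with 1 array left out, which also gave 0 to 1 higher for acetyltransferases and for the apoptosome, the latter 2 higher with array weights. The cause of these shifts was not tested. No paired analysis was possible because no replicate number in the labels links arrays across groups. The precision is limited by 3 arrays per group.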
